A study of Homo sapiens with 9 samples.

Results

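Transcripts of PC9 cells treated with siALKBH5#1 were compared with those of cells treated with siControl, across all genes on the array and by signal level and gene family. PC9 is an established human lung adenocarcinoma line with an activating EGFR mutation. The ALKBH5 siRNAs, siALKBH5#1 and siALKBH5#3, are separate Silencer Select products against its transcript, and siControl is the negative control siRNA of the same product line. All cells received 15 nM of siRNA with Lipofectamine 2000 and were collected 96 h later, and RNA was hybridised to human Clariom S arrays, 3 per group. The comparison set the 3 siALKBH5#1 against the 3 siControl arrays, 6 of the 9 in the series, chosen by the titles that the submitters gave them. The 3 siALKBH5#3 arrays were set beside them. All 9 arrays were fitted together, so the standard errors and p-values also draw on the spread of the siALKBH5#3 arrays. Each array gave an intensity, in arbitrary units, for 21448 transcript clusters, each a group of probes summarised together, and 17709 clusters carried the symbol of 1 of 17687 genes. The median intensity was 103 to 105 on the siALKBH5#1 arrays and 103 to 104 on the siControl arrays. Across clusters, Pearson's r of log2 intensity was 0.996 within siALKBH5#1 and 0.994 to 0.995 within siControl, and 0.991 to 0.993 between the groups. The titles call the 3 arrays of a group biological replicates and give nothing on separate cultures, and the p-values therefore reflect the spread among these arrays alone, which may be technical. Only 1 cell line was used, and in bulk RNA fewer cells of a type and less RNA per cell cannot be told apart.

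ALKBH5 belongs to the AlkB family of dioxygenases and removes the methyl group of N6-methyladenosine (m6A), the most abundant internal mark of messenger RNA. A complex of METTL3, METTL14, WTAP and VIRMA writes the mark, FTO is the other known eraser, and readers such as the YTH and IGF2BP proteins bind marked RNA and change how long it lasts or how well it is translated. Because many transcripts carry m6A, loss of an eraser can touch gene families with no common function.

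The targeted gene was examined first. The ALKBH5 cluster had an intensity of 112, 96.7 and 113 on the siALKBH5#1 arrays, against 2815, 3308 and 2361 on the siControl arrays. The groups did not overlap, and all siALKBH5#1 arrays lay near the median of the array. ALKBH5 fell 26.2-fold (95% confidence interval 19.0 to 36.1, adjusted p = 6.49e-07, limma). With siALKBH5#3 it averaged 40.5, lower still. The direct difference between the siRNAs was 1.45 ± 0.21 (log2, siALKBH5#1 minus siALKBH5#3, adjusted p = 0.000487, limma). Of the 21 measured genes on a hand-written list of m6A writers, readers and erasers, VIRMA was the only other to pass with siALKBH5#1. VIRMA is the scaffold of the writer complex. The paper also counts FMR1 as a reader and reports it lower with siALKBH5#1 than with control siRNA, but not lower with siALKBH5#3. VIRMA had 512, 347 and 524 with siALKBH5#1, against 928, 940 and 1015 with siControl, a fall of 1.08 ± 0.16 on the log2 scale (± SE, adjusted p = 0.00198). All its siALKBH5#1 arrays were below all its siControl arrays. On the siALKBH5#3 arrays the log2 difference of VIRMA from siControl was 0.09, and the direct difference between the siRNAs was -1.18 ± 0.16 (siALKBH5#1 minus siALKBH5#3, adjusted p = 0.000356). FTO averaged 5745 ± 415 with siALKBH5#1 and 7136 ± 533 with siControl (SD, n = 3 each) and did not pass (adjusted p = 0.17). Of 8 AlkB demethylases, ALKBH6 rose by 0.96 ± 0.21 and ALKBH2, which repairs methylated DNA, by 0.51 ± 0.12 on the log2 scale. Neither ALKBH6 nor ALKBH2 was called without siALKBH5#1 replicate 1, and at most 1 of them without siALKBH5#1 replicate 2 or 3, or without siControl replicate 1 or 2.

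The labelled cell type was checked against marker genes. The 6 epithelial markers (EPCAM, KRT8, KRT18, KRT19, CDH1, EGFR) stood at the 92.1st to 99.8th percentile of the clusters, and their summed intensity was 320809 to 325358 with siALKBH5#1 and 332184 to 337369 with siControl. Of these, CDH1 fell by 0.76 ± 0.18 and EGFR rose by 0.60 ± 0.12 on the log2 scale. The 4 lung lineage markers NKX2-1, SFTPB, SFTPC and NAPSA were dim, at the 11.3rd to 32.1st percentile, so that the lung origin of the line was not visible in them. The 3 immune, 4 fibroblast and 1 erythroid markers lay at or below the 38.8th percentile, and of these only CD14 passed the test. The 3 endothelial markers summed to 190 to 221 with siALKBH5#1, against 277 to 375 with siControl, and PECAM1 (log2 difference -0.88 ± 0.15) and CDH5 (-0.97 ± 0.20) fell while VWF (-0.39 ± 0.20) did not pass. What these dim signals have to do with other results was not tested.

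To describe the response by signal level, the clusters were ordered by their mean log2 intensity and split into 10 equal bins, bin 1 being the dimmest. An adjusted p under 0.05 was reached by 1731 of 21448 clusters (8.07%), of which 967 were higher (4.51%) and 764 lower (3.56%) with siALKBH5#1. The share called was 0.793% in bin 1, with a median intensity of 11.2, and 15.7% in bin 9, with a median of 2290. It was 10.7% in bin 10, with a median of 9690. Lower clusters outnumbered higher ones in each of the 5 dimmer bins (13 against 4 in bin 1), and higher clusters outnumbered lower ones in each of the 5 brighter bins (201 against 135 in bin 9). The median standard error of the log2 difference was 0.15 to 0.17 in the 5 dimmer bins and 0.12 in bin 10, while the median size of the difference was 0.12 in bin 1, 0.23 in bin 7 and 0.16 in bin 10. The share of clusters past 1.5-fold peaked earlier than the share called, with 0.606% in bin 1, 11.8% in bin 6, 9.7% in bin 9 and 4.85% in bin 10. Over all clusters, the arrays of the groups did not overlap in 26.9%, so that separate groups alone were common. Intensity depends on probe sequence as well as on the amount of RNA, and array signals near background understate folds. For siALKBH5#1 against siControl, leaving out siALKBH5#1 replicate 1, 2 or 3 gave 1138, 1037 or 1051 calls in place of 1731.

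**Figure D1:**
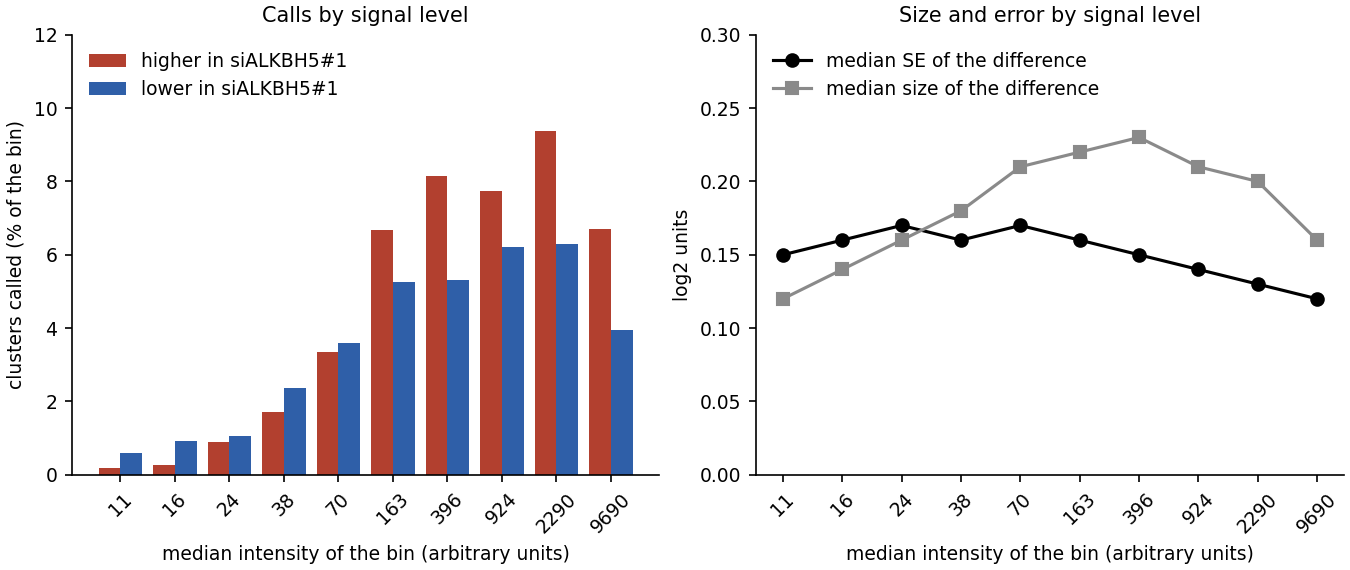
Share of clusters called (left, % of each bin, siALKBH5#1 higher in red and lower in blue) and the median standard error and median size of the log2 difference (right, log2 units) by signal bin, with the median intensity of each bin on the x axis. Calls were most frequent in bin 9 (15.7%) and rare in bin 1 (0.793%), while the standard error lay between 0.12 and 0.17.

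Most called changes were small. Of the 1731 calls, 561 were changes under 1.5-fold, 897 of 1.5-fold to 2-fold, 208 of 2-fold to 3-fold, 53 of 3-fold to 5-fold and 12 above 5-fold. The smallest changes that passed were those of ITGAV, the integrin alpha V chain (log2 difference -0.37), ETV6, an ETS repressor (-0.38), and CCDC14 (0.38), all bright genes in the brighter signal range. Among the brightest called clusters were the stratifin gene SFN, which encodes the 14-3-3 sigma protein, and KRT7, a keratin of simple epithelia. SFN had 76304, 70844 and 72161 with siALKBH5#1, against 54892, 54460 and 55046 with siControl, and rose by 0.42 ± 0.10 on the log2 scale. KRT7 averaged 53331 with siALKBH5#1 and 70327 with siControl, a log2 difference of -0.40. In the 2 dimmest bins the largest called changes stayed under 1 log2 unit, as for the unconventional myosin MYO15A (23.9 ± 3.99 with siALKBH5#1 and 13.8 ± 2.15 with siControl, SD, n = 3, log2 difference 0.79) and ARHGAP24, a GTPase-activating protein of RAC (8.95 and 17.2, log2 difference -0.94). Clusters without a symbol, 3739 in number and dim at a median percentile of 38.3, were called higher in 85 and lower in 89 cases (2.27% and 2.38%). Of 306 long non-coding RNAs 10 rose and 3 fell (3.27% and 0.98%), and of 118 transcribed pseudogenes 9 rose and 2 fell (7.63% and 1.69%). Over all clusters the shares were 4.51% higher and 3.56% lower, so the long non-coding RNAs lay below them in both directions.

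The 17687 genes were then grouped into 95 gene families and 51 lists of pathways and complexes. Among all genes 4.98% were called higher and 3.81% lower with siALKBH5#1, and the counts of members that follow are read against these shares. These shares take no account of signal level and can understate the background of bright groups. Of all clusters in bin 9, 9.37% were called higher and 6.29% lower, and in bin 10 6.71% and 3.96%. Of the 146 groups, 71 had at least 8 measured genes and a share called in 1 direction at least 2 times that of all clusters (47 higher, 42 lower, 18 of them in both directions), but 22 of the 71 reached it on 2 genes or fewer in a direction. Against the shares of all genes the number was 66, and the cytochrome P450 genes were among those no longer counted. Together the 146 groups held 5128 of the 17687 genes and 496 of the 1555 called genes, so most genes, called or not, lay outside them. With siALKBH5#3, which shares the siControl arrays and so is not an independent comparison, 9.36% of genes were called higher and 7.42% lower than siControl. The siRNAs were therefore also compared with each other, and 4097 clusters (19.1%) differed between them, with 10.3% of genes called higher with siALKBH5#1 and 10.3% higher with siALKBH5#3.

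**Figure D2:**
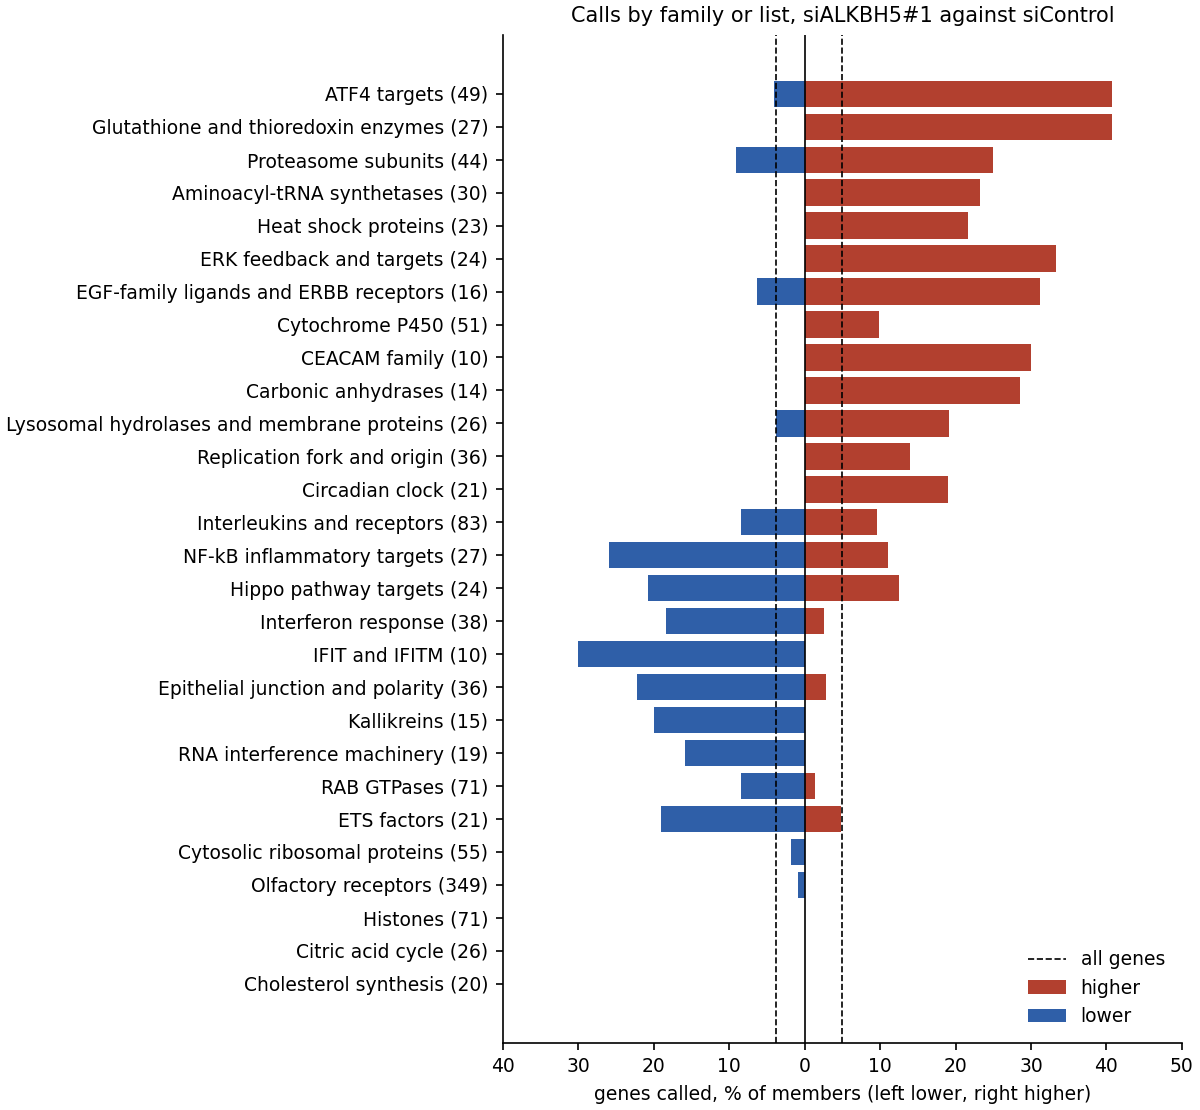
Percent of the measured genes of each family or list (number in brackets) called lower (left, blue) or higher (right, red) with siALKBH5#1, with dashed lines at the shares of all genes (3.81% lower, 4.98% higher). The ATF4 targets and the glutathione and thioredoxin enzymes reach 40.8% and 40.7% higher, and the histones, the citric acid cycle and cholesterol synthesis have no called gene.

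The proteasome, the barrel-shaped protease that degrades ubiquitinated proteins, was 1 of the groups with most calls. Of 44 measured genes 11 rose, 4 fell and 29 did not pass, against 4.98% of all genes higher and 3.81% lower, and the median log2 difference was 0.33, against -0.01 over all clusters. The genes that rose came from the catalytic core (PSMB1, PSMB4, PSMB5, PSMB7), the ATPase ring (PSMC4), the lid and base of the regulatory particle (PSMD3, PSMD4, PSMD11, PSMD12, PSMD14) and an assembly chaperone (PSMG4). PSMD3, a lid subunit, had 19041, 20310 and 19598 with siALKBH5#1, against 10895, 11564 and 13589 with siControl, and rose by 0.72 ± 0.13 on the log2 scale (adjusted p = 0.00617). PSMB7, which carries the trypsin-like activity, had 34059, 34343 and 31147, against 22405, 23938 and 24020 with siControl (log2 difference 0.50 ± 0.11, adjusted p = 0.0164). In both genes every siALKBH5#1 array lay above every siControl array.

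Within the same complex 4 genes went the other way. PSMD1, the largest scaffold subunit of the base, had 3153, 2978 and 3004 with siALKBH5#1, against 7820, 8220 and 8770 with siControl, and fell 2.71-fold (95% confidence interval 2.31 to 3.19, adjusted p = 1.61e-05). The others were PSMB9 and PSMB10, the interferon-inducible subunits of the immunoproteasome, and PSME1, a subunit of the PA28 activator. PSMB10 had 105, 67.8 and 113, against 155, 146 and 157 with siControl, PSMB9 averaged 2410 ± 195, against 3536 ± 199, and PSME1 averaged 2385 ± 34.6, against 3201 ± 228 (SD, n = 3). The third immunoproteasome subunit, PSMB8, averaged 2175 ± 124 with siALKBH5#1 and 2119 ± 275 with siControl, and its groups overlapped. With siALKBH5#3 no proteasome gene rose and 4 fell. Between the siRNAs 19 of the 44 genes were higher and 2 lower with siALKBH5#1 than with siALKBH5#3, among them PSMD11 (log2 difference 0.78 ± 0.11, adjusted p = 0.000372) and PSMD1 (-1.46 ± 0.11, adjusted p = 2.95e-06). The number of proteasome genes that rose was 5, 6 and 7 without siALKBH5#1 replicate 1, 2 and 3 and 7 without siControl replicate 1 or replicate 2. It was 23 under limma's trend and robust options and 6 when only the 6 arrays were fitted, while the number that fell was 1 to 3 in the leave-one-out fits, and 2 or fewer without siALKBH5#1 replicate 2 or 3, or without siControl replicate 1 or 2.

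**Figure D3:**
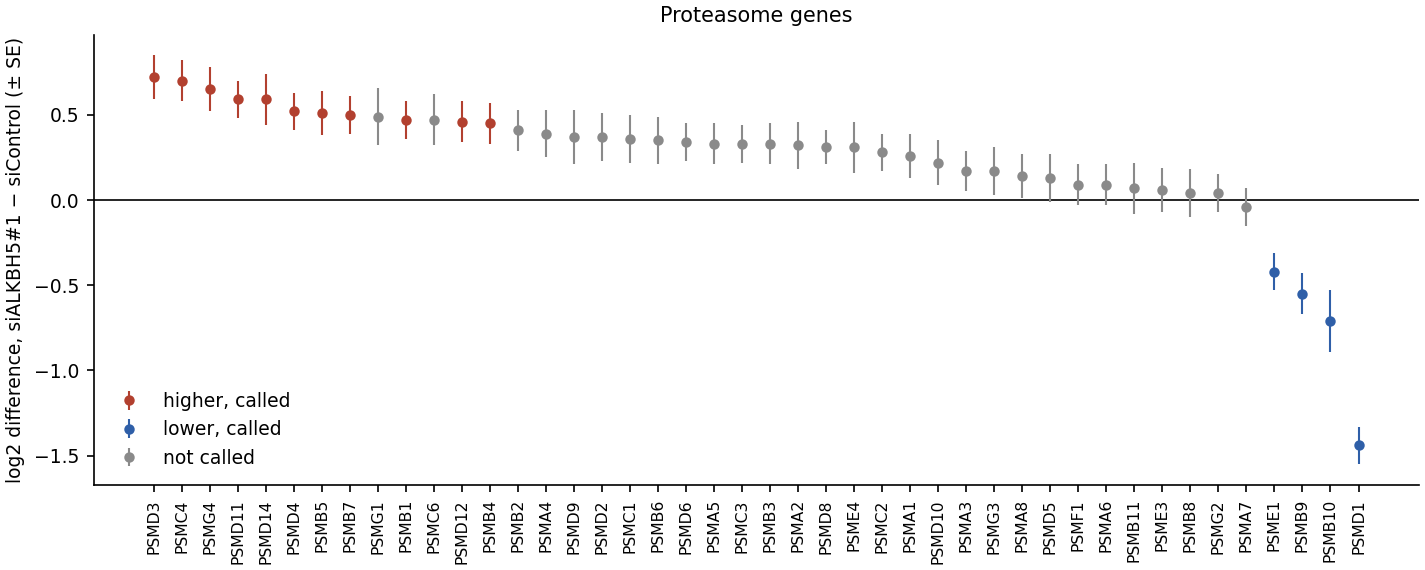
Log2 difference of each of the 44 proteasome genes (points, siALKBH5#1 minus siControl, bars ± SE, 3 arrays per group), ordered by size and coloured by whether the gene was called higher, lower or neither. The 11 called higher reach 0.72 for PSMD3, and PSME1, PSMB9, PSMB10 and PSMD1 lie between -0.42 and -1.44.

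The promoters of genes on either side of this split are shown because known response elements of proteasome genes, the antioxidant response element bound by NRF2 and related factors and the interferon-stimulated response element, can be read in them directly. Sequences are from RefSeq (GRCh38.p14) and run from 250 bases before the gene start to 50 bases after it, 5′ to 3′ on the gene's strand. Capitals mark the match. The antioxidant element was searched as TGAC and GCA with any 3 bases between them and the interferon element as GAAA and GAAA with any 2 bases between them, both on both strands, in the 14250 of 17687 genes that had a promoter sequence. The first 4 sequences hold the antioxidant element, from PSMD3 (chr17:39980557-39980856, plus strand), PSMD12 (chr17:67366528-67366827, minus strand), PSMD1 (chr2:231056617-231056916, plus strand) and GCLM (chr1:93909381-93909680, minus strand), and the last 2 the interferon element, from PSMB10 (chr16:67936801-67937100, minus strand) and PSME1 (chr14:24135944-24136243, plus strand).
PSMD3: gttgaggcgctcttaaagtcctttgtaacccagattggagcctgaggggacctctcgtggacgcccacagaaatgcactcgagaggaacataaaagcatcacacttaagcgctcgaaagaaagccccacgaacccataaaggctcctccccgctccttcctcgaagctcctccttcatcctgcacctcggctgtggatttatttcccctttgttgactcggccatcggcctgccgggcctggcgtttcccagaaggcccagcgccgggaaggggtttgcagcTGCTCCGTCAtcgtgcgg
PSMD12: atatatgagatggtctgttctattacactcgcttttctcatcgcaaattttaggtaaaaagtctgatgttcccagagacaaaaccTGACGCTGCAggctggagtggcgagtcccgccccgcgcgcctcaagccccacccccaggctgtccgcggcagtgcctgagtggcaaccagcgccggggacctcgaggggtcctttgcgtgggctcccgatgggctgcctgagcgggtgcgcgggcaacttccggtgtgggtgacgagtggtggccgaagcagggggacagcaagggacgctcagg
PSMD1: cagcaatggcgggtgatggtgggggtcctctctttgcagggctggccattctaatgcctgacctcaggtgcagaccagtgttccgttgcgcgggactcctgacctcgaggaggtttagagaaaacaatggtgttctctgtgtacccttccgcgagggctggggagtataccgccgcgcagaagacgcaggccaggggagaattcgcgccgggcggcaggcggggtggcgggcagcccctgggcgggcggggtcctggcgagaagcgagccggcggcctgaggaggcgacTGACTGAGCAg
GCLM: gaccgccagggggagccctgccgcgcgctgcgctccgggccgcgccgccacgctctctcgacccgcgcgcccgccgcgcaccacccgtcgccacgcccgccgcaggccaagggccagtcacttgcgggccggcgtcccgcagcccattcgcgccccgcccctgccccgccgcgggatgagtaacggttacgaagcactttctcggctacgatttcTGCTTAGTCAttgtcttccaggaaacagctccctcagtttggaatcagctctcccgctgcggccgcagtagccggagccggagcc
PSMB10: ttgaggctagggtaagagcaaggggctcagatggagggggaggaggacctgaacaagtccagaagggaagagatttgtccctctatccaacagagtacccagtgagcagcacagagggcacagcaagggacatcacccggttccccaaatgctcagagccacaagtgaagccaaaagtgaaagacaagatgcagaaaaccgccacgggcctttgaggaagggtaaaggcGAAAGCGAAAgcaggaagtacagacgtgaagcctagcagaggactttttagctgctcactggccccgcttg
PSME1: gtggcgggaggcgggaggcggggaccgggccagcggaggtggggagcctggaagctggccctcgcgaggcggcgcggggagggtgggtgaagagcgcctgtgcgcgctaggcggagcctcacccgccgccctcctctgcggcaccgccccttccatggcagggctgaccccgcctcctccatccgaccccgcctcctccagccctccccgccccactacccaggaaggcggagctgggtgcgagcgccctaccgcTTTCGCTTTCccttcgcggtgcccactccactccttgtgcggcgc
The antioxidant letters stood in 7 of 38 proteasome promoters (18.4%), against 463 of 14250 in all (3.25%). Of the 7, PSMD3 and PSMD12 rose and PSMD1 and PSMB9 fell, so the letters occurred on both sides. Among genes called higher 5.06% held them and among genes called lower 2.89%. The interferon letters stood in 5 of 38 proteasome promoters, of which PSMB4 and PSMG4 rose and PSME1 and PSMB10 fell, and in 3.11% of all promoters, 1.83% of those of genes called higher and 4.34% of those called lower. Median GC content was 65.3% in promoters of genes called higher, 65.0% in those called lower and 63.0% in all, and 65.3% in genes of above-median signal that were not called. A match says only that these letters lie in this window.

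Enzymes of glutathione and thioredoxin metabolism, which keep cellular thiols reduced, held a larger share of calls (40.7% higher). Of 27 measured genes 11 rose, none fell and 16 did not pass, with a median log2 difference of 0.32. SRXN1, the sulfiredoxin that repairs over-oxidised peroxiredoxins, had 2244, 2352 and 2267 with siALKBH5#1, against 915, 1083 and 1084 with siControl, and rose by 1.16 ± 0.12 on the log2 scale (adjusted p = 0.000137). GPX3, a secreted glutathione peroxidase, had 32672, 32199 and 28907, against 17298, 16732 and 14469 with siControl (0.95 ± 0.12, adjusted p = 0.000548). The groups of both genes were far apart relative to their spread. Synthesis genes rose less, namely GCLM, the modifier subunit of the rate-limiting ligase (0.50 ± 0.11), and GSS, glutathione synthetase (0.68 ± 0.17), while the catalytic subunit GCLC averaged 4275 ± 662 with siALKBH5#1 and 5024 ± 254 with siControl (SD, n = 3) and did not pass. The cystine importer SLC7A11 rose by 0.51 ± 0.12, and GGT1, which breaks down extracellular glutathione, by 0.99 ± 0.16. CHAC1, which degrades glutathione inside the cell, rose by 1.54 ± 0.13, so that the 11 genes include both makers and degraders of glutathione. The brightest members differed little: thioredoxin TXN averaged 95285 ± 13542 with siALKBH5#1 and 81961 ± 4003 with siControl, and peroxiredoxin PRDX1 79248 ± 6456 and 70358 ± 5571, with overlapping groups.

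The same family moved differently with siALKBH5#3, where 2 of the 27 genes rose and 7 fell. Glutaredoxin GLRX had 1444, 2074 and 1404 with siALKBH5#1, against 784, 814 and 962 with siControl, and averaged 437 with siALKBH5#3. Its direct difference between the siRNAs was 1.91 ± 0.19 (log2, siALKBH5#1 minus siALKBH5#3, adjusted p = 2.88e-05). For SLC7A11 that difference was 1.53 ± 0.12, for SRXN1 1.59 ± 0.12 and for GPX3 1.28 ± 0.12, and 13 of the 27 genes were called higher and 2 lower with siALKBH5#1 than with siALKBH5#3. The number of family members that rose against siControl was 5, 6 and 6 without siALKBH5#1 replicate 1, 2 and 3, 7 and 6 without siControl replicate 1 and 2, and 6 when only the 6 arrays were fitted. Among aldo-keto reductases, another family of detoxifying enzymes, AKR1B10 had 20448, 19253 and 15749 with siALKBH5#1, against 10921, 11442 and 9167 with siControl. It rose by 0.81 ± 0.13 on the log2 scale and averaged 3139 with siALKBH5#3. AKR1B15, a near-identical copy of AKR1B10 that may share its probes, also rose, and the other 9 measured members did not pass.

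Genes of amino acid supply were described by enzyme class. Of 49 targets of ATF4, which drives transcription when amino acids run short, 20 rose, 2 fell and 27 did not pass, with a median log2 difference of 0.41, and the members of the following groups overlap with them. With siALKBH5#3 31 rose and 2 fell, with a median of 0.69. Between the siRNAs 4 targets were higher and 19 lower with siALKBH5#1. Of 16 genes of asparagine, proline and glutamine metabolism 5 rose and 2 fell (4 and 1 with siALKBH5#3). ASNS, asparagine synthetase, had 1738, 1645 and 2135 with siALKBH5#1, against 526, 577 and 677 with siControl, a log2 difference of 1.63 (2.03 with siALKBH5#3), and for CHAC1 it was 1.54 (2.25 with siALKBH5#3). The 2 that fell handle nitrogen, namely glutamine synthetase GLUL and argininosuccinate synthase ASS1. GLUL had 5112, 4649 and 5006 with siALKBH5#1, against 11630, 10861 and 11112 with siControl (log2 difference -1.19 ± 0.11, adjusted p = 5.82e-05), and ASS1 3409, 3404 and 4003, against 6877, 7220 and 6879 (-0.96 ± 0.12, adjusted p = 0.000419). Neither was close to overlapping with siControl, and with siALKBH5#3 their log2 differences from siControl were 0.14 and 0.16. Of 19 genes of serine and one-carbon metabolism 5 rose and 1 fell (6 and 1 with siALKBH5#3). The pathway was split at its start, since PHGDH, its first enzyme, fell to 6750 ± 459 with siALKBH5#1, against 10084 ± 291 with siControl, while PSAT1, the second, averaged 32827 ± 3008, against 17611 ± 2559 (SD, n = 3). With siALKBH5#3 PHGDH was higher than siControl (log2 difference 0.43), and the direct difference between the siRNAs was -1.01 ± 0.11 (adjusted p = 7.83e-05). Without siALKBH5#1 replicate 1, 2 or 3 the number that rose in the serine group was 3, 3 and 2, and it was 3 without siControl replicate 2. In the asparagine group it was 3 without siALKBH5#1 replicate 1 or 3, or without siControl replicate 1 or 2, and 3 when only the 6 arrays were fitted.

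Promoters of ASNS and CHAC1, the ATF4 targets with the largest changes, are shown for their amino acid response element, searched as TGATGNAA on both strands, with the match in capitals. They are ASNS (chr7:97872359-97872658, minus strand) and CHAC1 (chr15:40953221-40953520, plus strand), from RefSeq as above.
ASNS: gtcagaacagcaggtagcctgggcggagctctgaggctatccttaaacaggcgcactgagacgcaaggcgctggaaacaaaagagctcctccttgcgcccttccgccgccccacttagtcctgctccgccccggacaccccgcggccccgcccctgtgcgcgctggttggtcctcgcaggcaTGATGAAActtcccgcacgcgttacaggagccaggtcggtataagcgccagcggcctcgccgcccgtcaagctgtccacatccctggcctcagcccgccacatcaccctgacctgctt
CHAC1: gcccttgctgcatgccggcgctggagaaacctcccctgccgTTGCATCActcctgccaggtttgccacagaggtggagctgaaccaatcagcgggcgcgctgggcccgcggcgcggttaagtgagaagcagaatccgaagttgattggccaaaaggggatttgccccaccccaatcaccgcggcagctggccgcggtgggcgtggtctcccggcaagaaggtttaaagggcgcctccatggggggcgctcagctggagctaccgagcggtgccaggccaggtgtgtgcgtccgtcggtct
These letters stood in 11 of 38 promoters of ATF4 targets (28.9%) and in 2.52% of all promoters. Of the 11 genes 5 rose (ASNS, CHAC1, SLC7A1, AARS1, CARS1) and none fell. Over the transcriptome the letters were about as frequent in genes called higher (2.95%) as in genes called lower (2.17%).

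Aminoacyl-tRNA synthetases, which load amino acids on their transfer RNAs, included 7 genes that rose and none that fell among 30 (7 and 4 with siALKBH5#3). These were the cytosolic enzymes for glycine, alanine, tyrosine, tryptophan and cysteine (GARS1, AARS1, YARS1, WARS1, CARS1) and the mitochondrial VARS2 and RARS2. GARS1 had 18466, 16766 and 19829 with siALKBH5#1, against 11647, 10976 and 10621 with siControl (log2 difference 0.73 ± 0.12), whereas IARS1 averaged 5863 ± 595 with siALKBH5#1 and 5699 ± 443 with siControl (SD, n = 3) and did not pass. The count was 4 without siALKBH5#1 replicate 3, without siControl replicate 2 and with the 6 arrays alone. Of 23 heat shock proteins 5 rose and none fell (4 and 1 with siALKBH5#3), including the mitochondrial chaperone HSPA9, with 32051, 31419 and 28165, against 21991, 19543 and 19849 with siControl. HSPA1A rose by 0.55 ± 0.11, but it has a near-identical neighbour and its probes may not tell the copies apart. Only 2 heat shock proteins were called without siALKBH5#1 replicate 1 or 2, and 3 without siControl replicate 1 or with the 6 arrays alone. The co-chaperone DNAJB1 averaged 8472 ± 572 with siALKBH5#1 and 12691 ± 2147 with siControl and did not pass (adjusted p = 0.0594).

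Inflammatory targets of NF-kB were examined as a list. NF-kB is a dimeric transcription factor held in the cytoplasm by inhibitors such as NFKBIA, which is itself one of its targets. Of 27 measured targets 7 fell, 3 rose and 17 did not pass, with a median log2 difference of -0.21. The genes that fell were the inhibitor NFKBIA, the NF-kB subunits RELB and NFKB2, the cytokines IL6 and CSF1, the chemokine CXCL2 and TNFAIP8. NFKBIA had 1626, 1378 and 1228 with siALKBH5#1, against 2801, 2690 and 2832 with siControl, and fell by 0.99 ± 0.13 on the log2 scale (adjusted p = 0.000637). RELB was dim and more variable, with 96.3, 75.4 and 154, against 164, 187 and 229 with siControl (adjusted p = 0.0376). IL6 had 144, 114 and 89.4, against 202, 165 and 202. In each of these the siALKBH5#1 arrays lay below the siControl arrays. The 3 that rose were the cytokines IL1A and LIF and the prostaglandin E synthase PTGES. Other classical targets did not pass, such as TNFAIP3 (2215 ± 37.0 with siALKBH5#1 and 1607 ± 453 with siControl, SD, n = 3, adjusted p = 0.0949) and the dim CXCL8. IL6, RELB and NFKB2 differed between the siRNAs, with a log2 difference of siALKBH5#1 minus siALKBH5#3 of -2.08 ± 0.20, -1.38 ± 0.23 and -0.97 ± 0.16. The number that fell was 4 without siALKBH5#1 replicate 1, 2 or 3, and 3 without siControl replicate 1. Without siControl replicate 2 it was 2, with 3 that rose, and without siControl replicate 3 it was 2, with 4 that rose, so that the balance of the calls turned. With siALKBH5#3 4 rose and 2 fell. Among the alternative limma fits checked, NFKBIA was called in all 12 and CXCL2 in all 11 that held its cluster.

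The promoter of NFKBIA, NFKBIA (chr14:35404700-35404999, minus strand), is shown with its kappa B site in capitals, searched as GGGA and TTTCC with any 1 base between them, on both strands.
NFKBIA: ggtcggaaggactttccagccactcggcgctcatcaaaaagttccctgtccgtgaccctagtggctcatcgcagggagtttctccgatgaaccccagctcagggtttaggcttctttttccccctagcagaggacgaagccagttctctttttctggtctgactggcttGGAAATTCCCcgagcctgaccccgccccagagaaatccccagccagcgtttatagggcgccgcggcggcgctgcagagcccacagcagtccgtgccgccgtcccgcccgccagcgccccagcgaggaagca
These letters stood in 11 of 21 promoters of the NF-kB list (52.4%) and in 75 of 14250 in all (0.526%). Of the 11 genes NFKBIA, CXCL2 and IL6 fell and none rose. Over the transcriptome they stood in 9 promoters of genes called lower (1.63%) and in 1 of a gene called higher (0.14%).

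A small number of interferon-inducible genes fell. Among 38 genes of the interferon response 7 were called lower and 1 higher, against 3.81% lower and 4.98% higher among all genes, and the number that fell was 6 to 8 in the leave-one-out fits. With siALKBH5#3 9 were called lower and 2 higher. They included IRF1, a transcription factor induced by interferon gamma (log2 difference -1.08 ± 0.24), PARP14 (-0.95 ± 0.13), PARP9 (-0.76 ± 0.15), the ligase HERC6 (-0.75 ± 0.13) and 3 of 10 members of the IFIT and IFITM families. IFITM3, a bright gene whose product blocks virus entry, had 22564, 18647 and 19455 with siALKBH5#1, against 31010, 37591 and 28859 with siControl. IFITM1 had 1003, 860 and 914, against 1902, 1360 and 1367. In both the groups did not overlap, although IFITM genes resemble each other in sequence and may share probes. The ubiquitin-like ISG15 was dim, with 31.7 ± 4.35 with siALKBH5#1 and 38.1 ± 4.07 with siControl, and did not pass. Of 7 guanylate-binding proteins 3 fell, and GBP2 had 153, 152 and 150 with siALKBH5#1, against 296, 298 and 318 with siControl, a fall of 1.01 ± 0.10 on the log2 scale (adjusted p = 0.000136). GBP3 and GBP1 fell by 0.79 ± 0.11 and 0.63 ± 0.15. The interferon element defined above stood in 19 of 30 promoters of the interferon list (63.3%), and of these genes only IFITM1, IFITM3 and PARP14 were called, all lower.

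Genes of antigen presentation were split. All 15 measured HLA genes were uncalled, HLA-C averaging 6755 ± 314 with siALKBH5#1 and 6358 ± 747 with siControl, and B2M, the light chain, 27567 ± 1136 and 29486 ± 2654 in siALKBH5#1 and siControl (SD, n = 3). The transporter TAP1 averaged 147 ± 5.04 and 145 ± 32.7 in siALKBH5#1 and siControl. CTSS, the cysteine protease cathepsin S that trims the class II chaperone, had 138, 158 and 104 with siALKBH5#1, against 462, 333 and 366 with siControl, and fell 2.91-fold (95% confidence interval 2.24 to 3.79, adjusted p = 0.00024). In contrast, 3 ligands of the activating receptor NKG2D rose, namely MICB (0.63 ± 0.14), ULBP1 (0.64 ± 0.16) and ULBP2 (0.54 ± 0.14 on the log2 scale). MICB had 21375, 23130 and 17593 with siALKBH5#1, against 12776, 12553 and 14754 with siControl, with no overlap. The class I list they belong to had 3 genes higher and 3 lower of 22 (13.6% each), against 4.98% and 3.81% of all genes. The 3 that fell were PSMB9, PSMB10 and TAPBPL. The list had 0 or 1 higher without any 1 of the siALKBH5#1 arrays, or without siControl replicate 1 or 2. It had 1 lower without siALKBH5#1 replicate 2 or 3, or without siControl replicate 1 or 2.

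Interleukins and their receptors went in both directions, with 8 of 83 higher and 7 lower (11 and 6 with siALKBH5#3). The genes of the IL-1 family made up most of the higher ones. IL1RL1, the receptor of IL-33, had 141, 259 and 230 with siALKBH5#1, against 58.3, 51 and 56.8 with siControl, and rose 3.67-fold (95% confidence interval 2.68 to 5.04, adjusted p = 0.000223). IL1R2, a decoy receptor that binds IL-1 without signalling, had 2322, 2244 and 1915, against 794, 891 and 1118, and IL1A had 170, 129 and 216, against 71.4, 55 and 106. All these arrays were above those of siControl. The receptor antagonist IL1RN (0.64 ± 0.14), IL18 (0.69 ± 0.17), IL1RL2 (0.56 ± 0.13) and the dim IL1RAPL1 (1.93 ± 0.21) also rose on the log2 scale, whereas the signalling receptor IL1R1 fell by 0.73 ± 0.14. The genes that fell included the IL-6 system, with IL6, its receptor IL6R (-0.52 ± 0.14) and the shared signalling chain IL6ST (-0.65 ± 0.11), and IL32. IL32 had 154, 180 and 121 with siALKBH5#1, against 325, 407 and 270 with siControl, and averaged 1212 with siALKBH5#3. The direct difference between the siRNAs was -3.02 ± 0.17 for IL32 and 2.12 ± 0.15 for IL1R2 (log2, siALKBH5#1 minus siALKBH5#3, adjusted p = 5.62e-07 and 1.96e-06). The number of interleukin genes that rose was 5 without siALKBH5#1 replicate 3, and the number that fell was 3 without siALKBH5#1 replicate 2 or 3, or without siControl replicate 1, 4 without siControl replicate 3, and 4 with the 6 arrays alone.

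**Figure D4:**
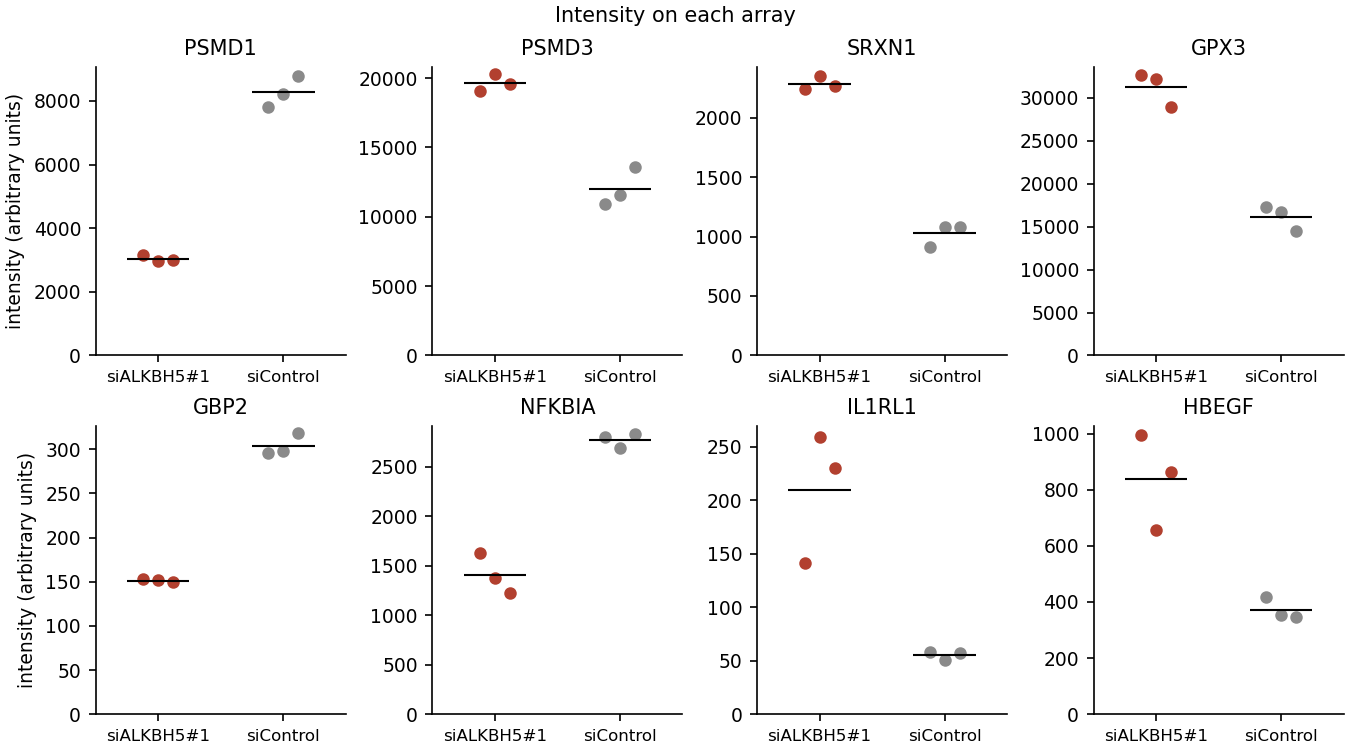
Intensity on each array (points, arbitrary units, linear axis from 0) with the group mean (line) for 8 genes, siALKBH5#1 left of siControl. In all 8 the 3 arrays of 1 group lie above the 3 of the other, and the siALKBH5#1 arrays of IL1RL1 spread between 141 and 259.

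The EGF system, which drives growth of this EGFR-mutant line, was examined next. Of 16 measured ligands, receptors and regulators 5 rose, 1 fell and 10 did not pass, and 8 of the 16 differences were above 0. With siALKBH5#3 1 rose and 2 fell. Of the ligands, HBEGF had 995, 655 and 864 with siALKBH5#1, against 417, 352 and 347 with siControl, and EPGN had 282, 226 and 180, against 107, 113 and 84.8. Both rose more than 2-fold (2.23-fold, interval 1.61 to 3.08, and 2.24-fold, 1.67 to 3.00) with no overlap. The ERBB3 ligand NRG1 rose by 0.81 ± 0.20 on the log2 scale, while TGFA (829 ± 162 with siALKBH5#1 and 851 ± 147 with siControl, SD, n = 3) and EREG did not pass. The receptor EGFR had 7074, 6818 and 6888, against 4011, 5154 and 4611 with siControl, whereas ERBB3 fell by 0.49 ± 0.11. Downstream, 8 of 24 feedback genes and targets of ERK rose and none fell (5 and 4 with siALKBH5#3), among them the phosphatase DUSP6, with 3411, 3312 and 3367, against 1907, 1711 and 1668. With siALKBH5#3 DUSP6 averaged 552, and the direct difference between the siRNAs was 2.63 ± 0.15 (log2, adjusted p = 5.43e-07). The number of EGF genes that rose was 3 without siALKBH5#1 replicate 2 or siControl replicate 1 or 2. The number of ERK targets that rose was 4 without siALKBH5#1 replicate 1 or 3, or without siControl replicate 2.

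Targets of the Hippo pathway, whose co-activator YAP1 responds to cell shape and contact, were split. Of 24 measured genes 5 fell and 3 rose. CCN1, a secreted matrix protein and classical YAP1 target, had 537, 468 and 568 with siALKBH5#1, against 941, 858 and 1081 with siControl, and fell by 0.87 ± 0.13 on the log2 scale. The kinase LATS2, the scaffold WWC1, AMOTL1 and CRIM1 fell as well, and YAP1 itself by 0.48 ± 0.12. CCN2, also a classical target, averaged 339 ± 14.7 with siALKBH5#1 and 303 ± 48.5 with siControl (SD, n = 3) and did not pass. The receptor kinase AXL rose, with 18118, 18840 and 20204, against 12424, 10882 and 14011. With siALKBH5#3 15 of the 24 genes rose and 1 fell, and between the siRNAs 3 were higher and 16 lower with siALKBH5#1, with CCN1 at -2.05 ± 0.13 (log2, adjusted p = 8.84e-07). The number that fell was 4 or 5 in the leave-one-out fits, while the number that rose was 1 without siALKBH5#1 replicate 1 or 3, or without siControl replicate 2 and 2 without siALKBH5#1 replicate 2, without siControl replicate 1 or with the 6 arrays alone, and it was 7 under limma's trend and robust options.

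Of 36 junction and polarity genes of epithelia 8 fell, 1 rose and 27 did not pass. With siALKBH5#3 3 fell and 7 rose. DSG2, a desmosomal cadherin, had 2097, 1870 and 1990 with siALKBH5#1, against 4581, 5013 and 4623 with siControl, and fell 2.39-fold (95% confidence interval 2.01 to 2.83, adjusted p = 4.65e-05). CDH1, E-cadherin of the adherens junction, had 5368, 3836 and 4490, against 8870, 8329 and 6063, and TJP3, a scaffold of the tight junction, 232, 179 and 149, against 331, 352 and 328. The groups of all 3 were separate, although CDH1 varied more between arrays than DSG2. None of 24 claudins, the sealing proteins of the tight junction, passed. TPM1, a tropomyosin of actin filaments, had 2351, 2078 and 2454 with siALKBH5#1, against 4670, 4607 and 4622 with siControl (log2 difference -1.02 ± 0.13), and averaged 7609 with siALKBH5#3. CD24, a mucin-like surface protein, was 2361, 2358 and 2240, against 8464, 8554 and 7917, a 3.58-fold fall. Between the siRNAs 18 of the 36 junction genes were lower with siALKBH5#1 and 2 higher. The number of junction genes that fell was 5, 2 and 3 without siALKBH5#1 replicate 1, 2 and 3 and 3 and 2 without siControl replicate 1 and 2, with 4 for the 6 arrays alone and 15 under limma's trend and robust options.

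Several enzyme and surface protein families held a few genes with large changes and many with none. Of 51 cytochrome P450 genes 5 rose and none fell, and 3 of the 5 are fatty acid and leukotriene hydroxylases of the CYP4F group on chromosome 19. CYP4F3 had 1824, 1777 and 1661 with siALKBH5#1, against 730, 741 and 660 with siControl, CYP4F2 averaged 1852 ± 236, against 1089 ± 187, and CYP4F11 21745 ± 1542, against 13364 ± 378 (SD, n = 3). These genes are close copies, so that their probes may not be independent. Of 10 CEACAM adhesion proteins 3 rose (CEACAM5, CEACAM6, CEACAM1), also on chromosome 19 and alike in sequence, and the count was 3 in every leave-one-out fit. CEACAM5, the carcinoembryonic antigen, had 4917, 3879 and 4433, against 1118, 1118 and 991, a 4.09-fold rise (95% confidence interval 3.10 to 5.39). Of 14 carbonic anhydrases, which interconvert carbon dioxide and bicarbonate, 4 rose, including membrane-bound CA12, with 688, 807 and 714, against 271, 308 and 338. With siALKBH5#3 CEACAM5, CYP4F3 and CA12 averaged 408, 254 and 121, below siControl. The direct differences between the siRNAs were 3.47 ± 0.18, 2.79 ± 0.11 and 2.65 ± 0.19 (log2, siALKBH5#1 minus siALKBH5#3).

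**Figure D5:**
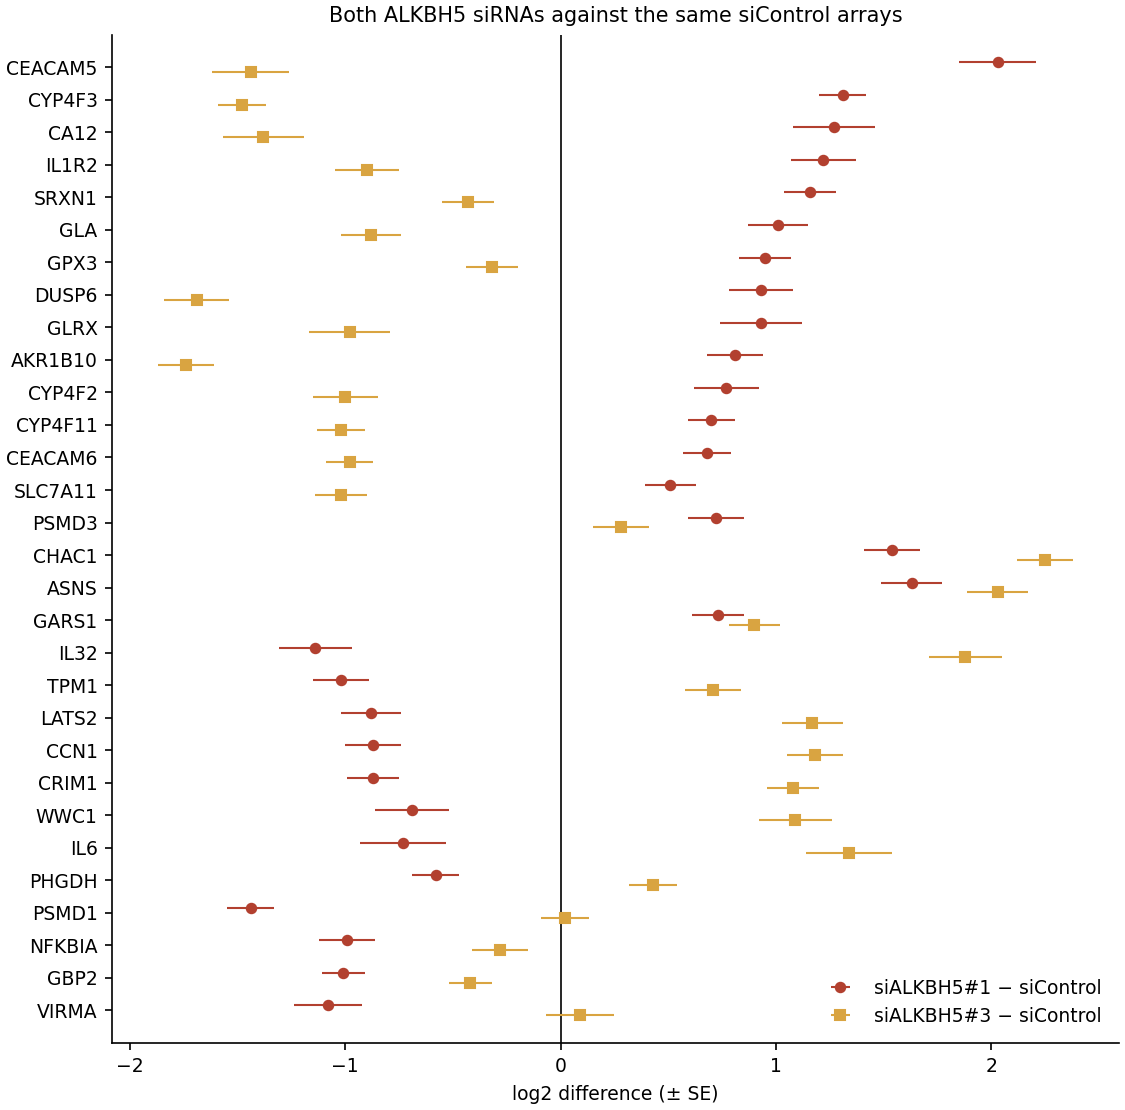
Log2 difference from siControl (points, bars ± SE) of 30 named genes with siALKBH5#1 (red circles) and siALKBH5#3 (yellow squares), both set against the same 3 siControl arrays. CEACAM5 stands at 2.03 with siALKBH5#1 and -1.44 with siALKBH5#3, while PSMD1 and VIRMA, at -1.44 and -1.08 with siALKBH5#1, stand at 0.02 and 0.09 with siALKBH5#3.

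Of 26 lysosomal hydrolases and membrane proteins 5 rose and 1, CTSS, fell. GLA, the alpha-galactosidase, had 2900, 2885 and 2590 with siALKBH5#1, against 1391, 1378 and 1371 with siControl (log2 difference 1.01 ± 0.14, adjusted p = 0.000906). NPC1, the cholesterol exporter of the lysosome, had 2975, 2941 and 2904, against 1573, 1690 and 1818. The cathepsins CTSL, CTSH and CTSB rose by 0.61 ± 0.11, 0.54 ± 0.13 and 0.45 ± 0.11, so that the cathepsins of the list did not move as 1 group. The number that rose was 3 without any 1 of the siALKBH5#1 arrays, or without siControl replicate 3, and 9 under limma's trend and robust options. Of 33 serpins, inhibitors of serine proteases, 4 rose and 1 fell with all arrays and in every leave-one-out fit. SERPINE2, a bright inhibitor of thrombin and urokinase, had 29699, 28139 and 29346, against 14922, 14711 and 14475, and SERPINB5, known as maspin, 4031, 3640 and 3766, against 1195, 1625 and 1361. SERPINB9, which inhibits granzyme B, fell to 122, 130 and 105 with siALKBH5#1, against 300, 192 and 182 with siControl. All 3 kallikreins that passed, of 15, fell, among them KLK5 (18942, 18413 and 18929, against 32188, 31073 and 29852 with siControl) and KLK7, which are proteases of the skin barrier. KLK5 was called in every alternative limma fit checked. The count of kallikreins was 2 without any 1 of the siALKBH5#1 arrays, or without siControl replicate 2.

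Solute carriers, the largest family of membrane transporters, had 20 of 342 genes higher and 13 lower, near the background of 4.98% and 3.81%. The largest single changes were nevertheless clear. SLC37A2, a glucose-phosphate transporter of the endoplasmic reticulum, had 3714, 4431 and 3403 with siALKBH5#1, against 941, 895 and 1332 with siControl. SLC7A8, a carrier of neutral amino acids, had 348, 291 and 377, against 113, 148 and 103, and averaged 45.8 with siALKBH5#3. SLC25A4, the ADP/ATP carrier of the inner mitochondrial membrane, had 643, 943 and 910, against 2375, 2087 and 2206, a 2.70-fold fall (95% confidence interval 2.16 to 3.39), and stood at a log2 difference of 0.04 from siControl with siALKBH5#3. Of 71 RAB GTPases, switches of vesicle traffic, 6 fell and 1 rose. RAB1A, which acts between the endoplasmic reticulum and the Golgi, was among the brightest clusters called, with 25266, 24633 and 23171 with siALKBH5#1, against 46911, 49460 and 44321 with siControl (log2 difference -0.94 ± 0.11). RAB3B of secretory vesicles rose, with 905, 816 and 889, against 367, 396 and 408. The number of RAB genes that fell was 4 without siALKBH5#1 replicate 1 or siControl replicate 1.

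Genes of RNA turnover were described as a list. Of 19 genes of RNA interference and deadenylation 3 fell and none rose (15.8% lower, against 3.81% of all genes). Those that fell were PAN3, the partner of the PAN2 deadenylase, CNOT7, a catalytic subunit of the CCR4-NOT complex, and the decapping enzyme DCP2. PAN3 had 450, 508 and 466 with siALKBH5#1, against 1058, 1114 and 1125 with siControl (log2 difference -1.21 ± 0.12, adjusted p = 7.05e-05), and the log2 difference with siALKBH5#3 was -0.32. The count was 2 without siALKBH5#1 replicate 2 or 3. Some of the calls with the smallest p among changes under 3-fold were bright genes of unlike function that fell with siALKBH5#1. CDV3 had 14270, 12990 and 15263, against 36984, 39150 and 39020 with siControl. NAGK, the N-acetylglucosamine kinase, had 3448, 2659 and 3287, against 9236, 8414 and 8409. IPMK, the inositol polyphosphate multikinase, and AREL1, a ubiquitin ligase, fell 2.68-fold and 2.94-fold. All 4 were at or above siControl with siALKBH5#3, with log2 differences of 0.43 for CDV3, 0.03 for NAGK, 0.37 for IPMK and 0.08 for AREL1. Between the siRNAs they stood at -1.87 ± 0.11, -1.51 ± 0.13, -1.80 ± 0.11 and -1.64 ± 0.13.

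Fewer replication and clock genes were called when any 1 siALKBH5#1 or siControl array was left out, as was the case for all clusters. Of 36 genes of the replication fork and origin 5 rose (ORC3, GINS3, RFC2, RFC4, CDC45) and none fell, with a median log2 difference of 0.32, but 2 were called without siALKBH5#1 replicate 1, 2 or 3 and 3 without siControl replicate 1 or 2, and 9 rose under limma's trend and robust options. ORC3, a subunit of the origin recognition complex, had 2135, 1615 and 1896 with siALKBH5#1, against 1277, 1116 and 960 with siControl. Of 21 circadian clock genes 4 rose (CIART, NR1D1, CRY1, NPAS2), and with siALKBH5#3 1 rose and 6 fell. CIART, a repressor of the clock, had 941, 729 and 611, against 456, 433 and 389, and averaged 174 with siALKBH5#3. Leaving out siALKBH5#1 replicate 1, 2 or 3 left 0, 2 or 1 clock genes called, leaving out siControl replicate 1, 2 or 3 left 2, 2 or 1, and 2 were called with the 6 arrays alone.

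Other groups held no call at all. No gene passed the test in 14 groups of 15 or more measured genes, which together held 430 genes. These were the histones (71 genes), orphan GPR receptors (70), kinesins (40), primary cilium genes (30), the citric acid cycle (26), tubulins (25), FGF ligands and receptors (25), claudins (24), taste receptors (24), homologous recombination and Fanconi genes (24), cyclin-dependent kinases (20), cholesterol synthesis (20), haem and iron metabolism (19) and HLA genes (15). Some of these groups were dim, but the histones, the citric acid cycle and cholesterol synthesis had median percentiles of 80.9, 83.0 and 87.7. The histone H4C3 averaged 83521 ± 5632 with siALKBH5#1 and 85005 ± 4704 with siControl (SD, n = 3). Cholesterol synthesis genes had a median log2 difference of 0.17 with siALKBH5#1 and -1.21 with siALKBH5#3, where 16 of the 20 fell, and 18 were higher with siALKBH5#1 in the direct comparison. Of 55 cytosolic ribosomal proteins, at a median percentile of 99.1, only RPS12 passed, with 18925, 20167 and 19762, against 30509, 27676 and 25477 with siControl. Of 349 olfactory receptors, at a median percentile of 12.5, none rose and 3 fell.

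To see whether called genes lay side by side, genes were ordered by position (GRCh38.p14). Among 17658 placed genes, 9 runs of at least 3 neighbours were called in the same direction, 5 higher and 4 lower, with 28 genes in all. On chromosome 1 the run GBP3, GBP1 and GBP2 fell, and KCNK1, SLC35F3 and COA6 rose. On chromosome 11 YAP1, BIRC2 and TMEM123 fell. TMEM123, a surface mucin, had 21428, 21162 and 21903 with siALKBH5#1, against 38820, 41642 and 37649 with siControl, and BIRC2, an inhibitor of apoptosis, fell by 0.42. On chromosome 2 COA5, UNC50 and MGAT4A and on chromosome 7 BZW2, TSPAN13 and AGR2 fell, and AGR2, a secretory disulfide isomerase, had 103, 108 and 129, against 552, 340 and 388. On chromosome 6 KIAA0319, TDP2 and ACOT13 rose with siALKBH5#1, and their log2 differences with siALKBH5#3 were -0.99, -0.27 and -0.57. On chromosome 3 ST3GAL6, DCBLD2 and COL8A1 and on chromosome 20 NRSN2, TRIB3 and RBCK1 rose. The run on chromosome X held 4 SPANX genes, sperm proteins also expressed in tumours, which rose by 0.88 to 0.98 but are near-identical copies and may share their probes. The number of runs was 27 under limma's trend and robust options and 6 with the 6 arrays alone. Per chromosome, the share of genes called higher was 2.76% on chromosome 13 to 7.29% on chromosome 22 and the share called lower 1.92% on chromosome 21 to 5.56% on chromosome 5.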

How the data were processed

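Values were those of 9 arrays grouped by their titles. The deposited intensities, 1 per transcript cluster and array on a linear scale, had been normalized for the authors by the company that ran the arrays. The submitters' processing notes name RMA (background correction, normalization between arrays and a summary of probes), Affymetrix Expression Console and hg38, while the methods name the company's own analysis software, so which tool made these values is not settled. Array medians lay close together, and normalization of this kind would hide changes in total RNA.

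Of 24351 entries 2903 control probe sets were left out, and the log2 of 21448 intensities was fitted with no filter and no pseudocount, all values being above 0. A model with 3 group means on all 9 arrays (6 residual and 5.79 prior degrees of freedom) was fitted with lmFit and eBayes (limma 3.58.1, R 4.3.3). Calls had a Benjamini-Hochberg adjusted p under 0.05 over all clusters. For arrays, their number limits the precision. A gene with several clusters was represented by the brightest. Symbols came from the platform annotation through Entrez ID to RefSeq. Families followed symbols, lists were written by hand, and promoter letters were searched on both strands. Members, families and lists were chosen with earlier results of these data known, and no set test was run.

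Named genes were ALKBH5, up to 6 called members of a described group by size of change (or its 2 brightest where under 2 were called), the 8 brightest calls in each direction, the 10 in each direction with the smallest p under 3-fold, the 6 smallest changes, the 4 largest in each direction in 5 signal ranges and members of neighbour runs. Further members, named for their place in a complex or pathway, and FTO were chosen after their values were seen. Alternatives were other priors, normalizations, filters, the methods' t-test, a replicate block and leaving out each array. On simulated data with 21448 clusters, 74 of 100 clusters changed by 1 log2 unit and 99 of 100 changed by 2 were called, with 10 calls among the unchanged. The simulation changed far fewer clusters than were called here, which alters the Benjamini-Hochberg cut-off, so its recovery need not hold for these data.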

Additional observations from a re-analysis of the deposited data

How the results depend on the processing

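For siALKBH5#1 against siControl, 1731 clusters were called. The count was 1037 to 1723 when 1 array was left out, 1198 with the 6 arrays alone, 2397 with clusters under the median left out, 1701 after quantile normalization and 1707 with array medians subtracted, and a fold limit of 1.5 kept 1170. limma's trend and robust options gave 2604 (1500 higher, 1104 lower), of which 1685 were among the 1731. The methods' t-test gave 703 at an unadjusted p under 0.01 and 1.5-fold (395 higher, 308 lower) and 324 after Benjamini-Hochberg adjustment. Quantile normalization put 50.7% of calls higher, against 55.9%. For siALKBH5#1 against siALKBH5#3 the count of 4097 was 3110 to 3381 with 1 array left out. The share called among clusters above the median signal was 13.1%, and 20.8% with the trend, while that below it was 3% and 3.47%. Groups at 2 times the share of all clusters were 71, and 65 to 80 with 1 array left out, and 66 were at 2 times the share of all genes, a background added after seeing the data. The 9 neighbour runs became 27 with the trend, an alternative added after seeing the data. The cause of these shifts was not tested.

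The replicate numbers did not pair the arrays: same-numbered arrays of siALKBH5#1 and siControl had correlations of 0.0768, -0.0354 and 0.123 in their deviations. With the number as a replicate block, 1430 clusters were called for siALKBH5#1 against siControl (795 higher, 635 lower), 1355 of them among the 1731, and 3774 for siALKBH5#1 against siALKBH5#3.

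Of 357 named genes that were called, 201 were called in every alternative fitted and none changed direction. Dim clusters limit what can be said, since folds there can be understated and no detection calls were used.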

Other observations

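Signalling ligands that act between neighbouring cells also changed with siALKBH5#1. Of 21 ephrins and Eph receptors 3 rose and 1 fell, and the ephrins themselves were split. EFNB1 had 999, 832 and 961 with siALKBH5#1, against 328, 327 and 382 with siControl (log2 difference 1.43 ± 0.12), whereas EFNA1 had 161, 147 and 159, against 353, 227 and 383 (-1.01 ± 0.19). WNT7A, a ligand of epithelial growth, had 898, 877 and 1066, against 216, 328 and 262, and the Notch ligand JAG1 1545, 1543 and 1602, against 625, 582 and 804. The adhesion protein NECTIN3 averaged 3839 ± 391 with siALKBH5#1 and 1483 ± 225 with siControl (SD, n = 3). In all 5 genes the groups did not overlap. With siALKBH5#3, which shares the siControl arrays, the log2 differences were -0.40 for EFNB1, 0.19 for EFNA1, -0.04 for WNT7A, 0.83 for JAG1 and 0.93 for NECTIN3.

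Among transcription factors, SOX4 had 1488, 1008 and 1355 with siALKBH5#1, against 2700, 2543 and 2581 with siControl (log2 difference -1.04 ± 0.15), while SOX9, with 4515, 4436 and 4341, against 2259, 2606 and 3289, and SOX15 (0.64 ± 0.12) rose. Of 21 ETS factors 4 fell and 1 rose, and 1 or 2 fell in the leave-one-out fits except without siControl replicate 2, where 4 fell. The stress gene TP53INP1, a p53 target, fell 4.82-fold (95% confidence interval 3.45 to 6.75) to 22.1, 15.1 and 21.5, against 127, 82 and 77.3 with siControl, while CDKN1A, the p53 target that arrests the cell cycle, had 924, 930 and 927, against 597, 684 and 531 (0.63 ± 0.12). Of 23 p53 targets 5 rose and 2 fell, and of these 3 rose without siALKBH5#1 replicate 1 or 3 and 1 fell without siALKBH5#1 replicate 1 or 2, or without siControl replicate 2. The paper describes the rise of p21, the CDKN1A protein, in PC9 cells as independent of p53. A role of p53 in these transcript changes was not tested.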
